A study of Mus musculus with 4 samples.

Results

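The 9 genes described here encode transcription factors of the cortical interneuron lineage: the homeobox genes Dlx1, Dlx2, Dlx5, Dlx6 and Nkx2-1, the LIM-homeobox genes Lhx6 and Lhx8, and the zinc-finger genes Sp8 and Sp9. They were chosen by symbol, and all 9 were among the 19968 genes listed in both deposited tables. RNA was sequenced from the cerebral cortex of embryonic day 15 mice of strain C57BL/6, from embryos with a conditional deletion of Prdm16 (genotype Prdm16cKO, called cKO) and from controls carrying the floxed alleles (Prdm16fl/fl, called floxed). The labels name neither the Cre line nor the deleted exon, they give no other allele or agent, and the title of 1 sample of each group holds the word Blood without an explanation. Of the 4 labelled samples, the tables hold 3 libraries, cKO 1, cKO 2 and floxed, so errors can be given for cKO alone (SD, n = 2), and every floxed value is that of 1 library. No label ties the libraries to different animals, and the tests below therefore rest on a spread that may be technical.

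Most cortical interneurons are born outside the cortex, in the ganglionic eminences of the ventral telencephalon, and migrate tangentially into it. Dlx1 and Dlx2 drive GABAergic differentiation in eminence progenitors and act upstream of Dlx5 and Dlx6. Nkx2-1 specifies the medial eminence and induces Lhx6, which migrating interneurons keep after Nkx2-1 is switched off, and Lhx8, which serves cholinergic and pallidal neurons. Sp8 and Sp9 act in the ganglionic eminences and in interneurons born there, and Sp8 is also expressed in cortical progenitors.

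The targeted gene did not separate the labels. In the order cKO 1, cKO 2 and floxed, which all triplets of values below follow, Prdm16 had 676, 447 and 538 counts, or 34.6, 24.1 and 30.2 CPM (counts scaled by the library total to a sum of 1000000). The library labelled cKO 1 lay above floxed, with a ratio of 1.15 (exact 95% interval 1.02 to 1.29), and cKO 2 below it, with 0.798 (0.702 to 0.906). Reads outside the deleted part of the gene, which the labels do not give, check nothing. Every direction below is therefore that of a library labelled cKO. Library totals were 19511861, 18577725 and 17836634 counts. The libraries carried cortical markers: Neurod6, a factor of pallial excitatory neurons, had 979, 872 and 902 CPM, and 14 pallial genes summed to 3392, 3397 and 3336 CPM. They differed in other tissue. The 11 genes of a meninges list summed to 1331 CPM in cKO 1, 89.1 in cKO 2 and 852 in floxed, and the 12 of an endothelium list to 389, 190 and 325 CPM. No marker of either list was at 0, although the meningeal transporter gene Slc6a13 had 0.0538 CPM in cKO 2. Leaving the genes of these 2 lists out of the totals moved each log2 ratio given below by 0.000786 in cKO 1 and by -0.0013 in cKO 2. The lists are a small part of each total, so this could hardly move a ratio and concerns the divisor alone. The part of the tissue difference in the values of the members was not tested.

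Upstream sequence is shown for 4 members whose counts stood for the different patterns: Lhx6 (lower in both cKO libraries), Dlx2 (lower in cKO 2 alone), Nkx2-1 (opposite in the cKO libraries) and Sp8 (higher in both). Each is the 250 bases before a transcription start in RefSeq (GRCm38.p6), taken at the start that is also the deposited start of the gene, 5′ to 3′ on the gene's strand. Capitals mark GGGCGG, the GC box that Sp factors recognise, and CCAAT, the CCAAT box, on either strand. The windows are chr2:36105409-36105658 (minus strand) for Lhx6, chr2:71546755-71547004 (minus) for Dlx2, chr12:56536909-56537158 (minus) for Nkx2-1 and chr12:118846079-118846328 (plus) for Sp8.
Lhx6: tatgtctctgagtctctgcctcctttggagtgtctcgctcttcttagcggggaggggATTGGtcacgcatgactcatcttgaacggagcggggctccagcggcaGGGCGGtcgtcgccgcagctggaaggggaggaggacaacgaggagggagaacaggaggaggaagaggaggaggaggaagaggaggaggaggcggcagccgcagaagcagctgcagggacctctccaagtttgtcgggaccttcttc
Dlx2: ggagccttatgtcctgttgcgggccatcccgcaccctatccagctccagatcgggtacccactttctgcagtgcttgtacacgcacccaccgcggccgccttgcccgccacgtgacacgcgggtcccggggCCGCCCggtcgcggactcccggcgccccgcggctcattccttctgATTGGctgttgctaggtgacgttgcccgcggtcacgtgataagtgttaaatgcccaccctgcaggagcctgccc
Nkx2-1: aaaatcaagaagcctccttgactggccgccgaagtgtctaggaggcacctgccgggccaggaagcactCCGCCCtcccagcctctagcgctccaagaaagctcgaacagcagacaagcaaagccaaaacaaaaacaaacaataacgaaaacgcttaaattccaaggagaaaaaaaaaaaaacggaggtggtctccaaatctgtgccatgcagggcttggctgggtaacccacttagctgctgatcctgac
Sp8: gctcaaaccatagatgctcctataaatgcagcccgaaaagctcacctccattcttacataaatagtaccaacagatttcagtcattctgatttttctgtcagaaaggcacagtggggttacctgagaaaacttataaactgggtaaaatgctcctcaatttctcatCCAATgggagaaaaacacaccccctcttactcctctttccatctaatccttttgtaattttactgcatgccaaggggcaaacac
The table of promoters gave 11 starts for 7 members, with more than 1 for Lhx6 and Sp8, and none for Dlx5 and Dlx6. GGGCGG stood in 6 of the 11 windows, against 32.7% of 32841 windows of the same length over all genes, and CCAAT in 6 of 11, against 33.9%. The homeodomain core TAATTA stood in 1 of 11, at another start of Sp8, against 4.84% of all windows. GC content ran from 40.8% in the Sp8 window shown to 68.0% at Dlx1, with a median of 57.2% against 52.4% over all windows. The motifs did not overlap each other, and the windows shown differ in them: those of Lhx6 and Dlx2 hold both, that of Nkx2-1 GGGCGG alone and that of Sp8 CCAAT alone. This depends on the start shown, since the window of Sp8 at chr12:118846983-118847232 holds both. These matches describe letters and show no binding.

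The members lie in few places. Chromosome 2 holds 4 of them, Lhx6 (36081953 to 36105408, minus strand), Dlx1 (71528113 to 71533981, plus), Dlx2 (71543408 to 71546754, minus) and Sp9 (73271925 to 73284706, plus), in GRCm38 coordinates as deposited. Dlx1 and Dlx2 face each other with 9426 bases between their 3′ ends, and Dlx6 (chromosome 6, 6863334 to 6868568, plus) and Dlx5 (6877805 to 6882085, minus) do so with 9236. Nkx2-1 (56531958 to 56536908, minus) and Sp8 (118846329 to 118852576, plus) lie on chromosome 12 and Lhx8 (154306294 to 154330659, minus) on chromosome 3.

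Per kilobase of exon, Dlx1 had the highest level of the 9, 38.8 CPM per kb on average over the libraries, with a range of 35.7 to 43.0. Dlx2 followed at 22.4 (17.4 to 25.1), and Dlx5 at 14.8 (14.01 to 15.2) and Lhx6 at 14.003 (11.7 to 17.3) could not be ordered, as their ranges overlap. Sp9 had 5.398 CPM per kb (4.98 to 6.07). The other 4 had overlapping neighbours: Dlx6 at 4.47, Nkx2-1 at 3.91, Lhx8 at 2.45 and Sp8 at 2.33 CPM per kb. Within each cluster the level of 1 gene stood above that of its partner, Dlx1 above Dlx2 and Dlx5 above Dlx6, with no overlap of their ranges.

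**Figure D1:**
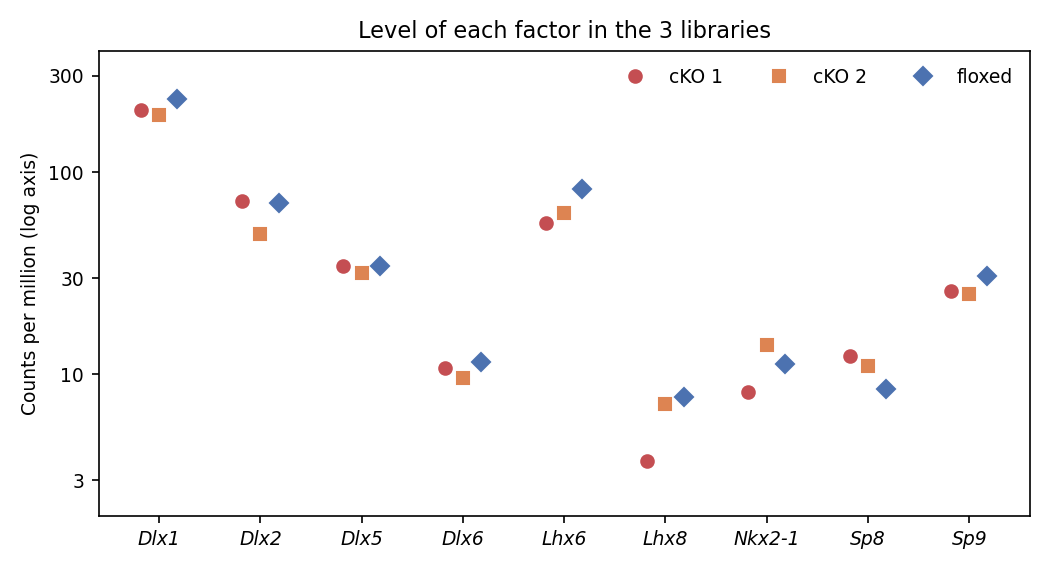
Level of each of the 9 factors in CPM (log axis) in cKO 1, cKO 2 and floxed, 1 point per library. Dlx1 lies near 200 CPM and Lhx8 between 3.74 and 7.74 CPM. The cKO points lie below floxed for Lhx6 and above it for Sp8.

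The comparison of cKO with floxed asks whether the deletion goes with a change in these factors. No member passed the test: edgeR's quasi-likelihood test over 16725 genes called 0 of 9 members, with Benjamini-Hochberg adjusted p-values of 0.9999 for each, and 1 gene in all (Ptx3, 0.00598% of genes tested). The DESeq2 Wald test called 5 genes (0.0299%) and limma-voom 1, none of them a member. Only Lhx6 had an unadjusted edgeR p under 0.05 (0.0124). Each library labelled cKO was then set against floxed as a ratio of CPM with its exact 95% interval, which covers counting error and compares libraries, not conditions. In cKO 1, 5 members were lower beyond counting error and 1 higher, where 16% of all genes were lower and 17.8% higher. In cKO 2, 4 were lower and 2 higher, against 24.6% and 16%. Without regard to counting error, both cKO levels lay below floxed for 6 members (31.8% of all genes) and above it for 1 (27.7%). The cKO libraries differed from each other beyond counting error in 5 members (44.3% of all genes), with cKO 1 below cKO 2 in 3 (16.9%) and above it in 2 (27.3%).

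The same 3 members, Dlx1, Lhx6 and Sp9, were lower than floxed beyond counting error in both cKO libraries, against 7.53% of all genes tested and 8.9% of the 10247 genes within the members' range of mean CPM. Sp8 was higher in both, against 5.16% and 6.11%. Nkx2-1 was lower in cKO 1 and higher in cKO 2, a pattern of 5.76% of all genes tested and 6.33% of those in that range. These comparisons share the floxed library, so a low or high value there moves both ratios of a gene the same way. The median log2 ratio of the 9 members was -0.19 in cKO 1 and -0.26 in cKO 2, beside 0.01 and -0.04 over all genes tested. In bulk tissue, fewer cells of a type and less RNA per cell cannot be told apart.

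**Figure D2:**
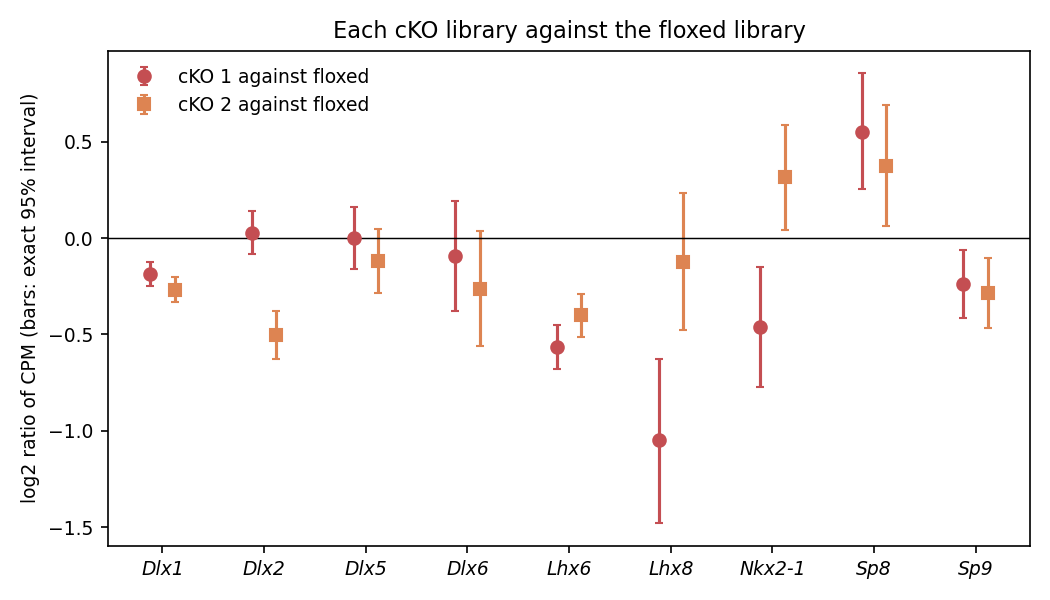
log2 ratio of CPM of each cKO library to the floxed library for the 9 factors, with bars for the exact 95% interval of counting error. Both intervals lie below 0 for Dlx1, Lhx6 and Sp9 and above 0 for Sp8, and those of Nkx2-1 lie on opposite sides.

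Among the Dlx genes, Dlx1 had 3976, 3583 and 4140 counts, or 204, 193 and 232 CPM. Both cKO libraries lay below floxed, by a small margin. The ratio to floxed was 0.878 in cKO 1 (0.840 to 0.917) and 0.831 in cKO 2 (0.794 to 0.869). For Dlx1, edgeR gave a log2 fold of -0.23 (SE 0.13) at an adjusted p of 0.9999. Dlx2, its neighbour and close paralog, had 71.8, 49.7 and 70.4 CPM. Here cKO 2 alone was low: the ratio was 0.706 in cKO 2 (0.647 to 0.769) and 1.02 in cKO 1 (0.944 to 1.10), and the fitted log2 fold of -0.21 (SE 0.22) turns to 0.028 without cKO 2. Between the cKO libraries Dlx2 differed by a ratio of 1.45 (1.33 to 1.57), against 1.06 (1.01 to 1.11) for Dlx1.

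Dlx5, which acts in differentiating GABAergic neurons, had 34.4, 31.7 and 34.4 CPM, and its ratio to floxed was 0.999 in cKO 1 (0.894 to 1.12) and 0.921 in cKO 2 (0.821 to 1.03). Dlx6, transcribed from the same cluster, had 10.8, 9.58 and 11.5 CPM, with ratios of 0.936 (0.769 to 1.14) and 0.834 (0.678 to 1.02). Neither gene left counting error in either library. The intervals reach down to ratios of 0.821 for Dlx5 and 0.678 for Dlx6, both in cKO 2. They cover no spread between libraries and so set no bound on a decrease with the deletion. The antisense RNA of this cluster was lower. Dlx6os1, also known as Evf2, had 28.1 CPM in cKO 1, 21.0 in cKO 2 and 33.9 in floxed, with ratios of 0.829 (0.737 to 0.933) and 0.620 (0.544 to 0.705). For this RNA, edgeR gave -0.46 (SE 0.22) at an adjusted p of 0.9999. Its exons share no bases with those of Dlx6 in GENCODE M21. Dlx1as, antisense to Dlx1, had 6.30, 5.54 and 6.73 CPM, within counting error in each library, and shares 6.21% of the exon bases of Dlx1, where an unstranded kit cannot tell their reads apart.

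Lhx6, the factor that medial eminence interneurons carry into the cortex, had 1094, 1168 and 1479 counts, or 56.1, 62.9 and 82.9 CPM. Both cKO libraries lay well below floxed and near each other, at 59.5 ± 4.81 CPM (SD, n = 2). The ratio to floxed was 0.676 in cKO 1 (0.625 to 0.732) and 0.758 in cKO 2 (0.702 to 0.819). The fitted log2 fold was -0.48 (SE 0.15), the largest in size relative to its error among the 9, and it did not pass edgeR's test (adjusted p = 0.9999). In the edgeR, DESeq2 and limma-voom alternatives the adjusted p of Lhx6 lay between 0.99976 and 0.99998.

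Nkx2-1, which acts upstream of Lhx6 in the medial eminence, had 8.15 CPM in cKO 1, 13.9 in cKO 2 and 11.2 in floxed, on 159, 259 and 200 counts. The floxed library lay between the cKO libraries. The ratio was 0.727 in cKO 1 (0.586 to 0.900) and 1.24 in cKO 2 (1.03 to 1.503), and the cKO libraries differed from each other by a ratio of 0.585 (0.477 to 0.715). Their mean, 11.0 ± 4.10 CPM (SD, n = 2), was close to floxed, and the fitted log2 fold of -0.02 (SE 0.37) has no direction that holds under other scalings. Gm26973 lies antisense to Nkx2-1, and their exons share no bases.

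Lhx8, the factor of cholinergic and pallidal neurons, had 73, 132 and 138 counts, or 3.74, 7.11 and 7.74 CPM. The cKO 1 library alone was low, with a ratio of 0.484 (0.359 to 0.647), while cKO 2 had 0.918 (0.718 to 1.17). This was the only member past 1.5-fold in a cKO library, where 12.3% of all genes and 2.18% of genes in the members' range of CPM were past it in cKO 1. In cKO 2, 0 members were past it, against 18.8% of all genes. The log2 fold from edgeR was -0.51 (SE 0.44), with an adjusted p of 0.9999. The authors' deposited tables compare 1 library with 1 library, and there the log2 fold of Lhx8 in cKO 1 was -1.05. The authors' p-values and marks of significance rest on no spread between libraries and are not given here.

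Markers of the cells that Lhx8 serves were low in the same library. Gbx1, a homeobox gene of basal forebrain neurons, had 2.204, 4.52 and 4.88 CPM, with a log2 ratio of -1.15 in cKO 1 and -0.11 in cKO 2. Shh, expressed in the medial eminence mantle and preoptic area, had 0.718, 0.915 and 1.57 CPM. Zic4, a zinc-finger gene also active in septum and meninges, went the other way, with 35.0, 22.6 and 15.98 CPM. Of 7 tested genes of the cholinergic and pallidal list, 3 were lower and 1 higher in cKO 1, and 0 lower and 1 higher in cKO 2, with medians of -0.38 and -0.40. With Zic4 at the head of the list, its summed level was 41.4, 30.6 and 26.4 CPM. The cholinergic enzyme gene Chat, named after its values were seen, had 0 counts in cKO 2, which allows up to 0.161 CPM. The part of these cells in the Lhx8 result was not tested.

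Sp8 was the member with higher counts in both cKO libraries. It had 242, 204 and 151 counts, or 12.4, 11.0 and 8.47 CPM. The ratio was 1.47 in cKO 1 (1.19 to 1.81) and 1.30 in cKO 2 (1.05 to 1.61). For Sp8 the edgeR estimate was 0.47 (SE 0.30) on the log2 scale, at an adjusted p of 0.9999. Its paralog Sp9 had 25.9, 25.1 and 30.6 CPM, a cKO mean of 25.5 ± 0.562 CPM (SD, n = 2). Both cKO libraries lay below floxed, with ratios of 0.847 (0.749 to 0.958) and 0.821 (0.724 to 0.931), and the edgeR estimate was -0.26 (SE 0.19), again at 0.9999. Sp9 shares 5.35% of its exon bases with Cir1 on the other strand, whose log2 ratios were 0.22 and -0.01.

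Ratios of 2 genes within a library do not depend on how libraries are scaled, and 6 were taken after the values had been seen. The counts of Sp8 came to 0.478 of those of Sp9 in cKO 1 (exact 95% interval 0.409 to 0.559), 0.437 in cKO 2 (0.369 to 0.516) and 0.277 in floxed (0.229 to 0.332). Both cKO intervals lie above that of floxed. The counts of Lhx6 were 6.88 times those of Nkx2-1 in cKO 1 (5.82 to 8.18), 4.51 in cKO 2 (3.94 to 5.18) and 7.40 in floxed (6.38 to 8.62), so cKO 2 stood apart and cKO 1 did not. The ratio of Lhx8 to Nkx2-1 was 0.459, 0.510 and 0.690, with overlapping intervals. Dlx1 to Dlx2 was 2.84 (2.67 to 3.02), 3.88 (3.61 to 4.18) and 3.30 (3.09 to 3.51), with the floxed library between the cKO libraries. Dlx5 to Dlx6 was 3.20, 3.31 and 2.995, and its intervals overlap. Dlx6os1 to Dlx6 was 2.61, 2.19 and 2.95, with overlapping intervals as well.

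**Figure D3:**
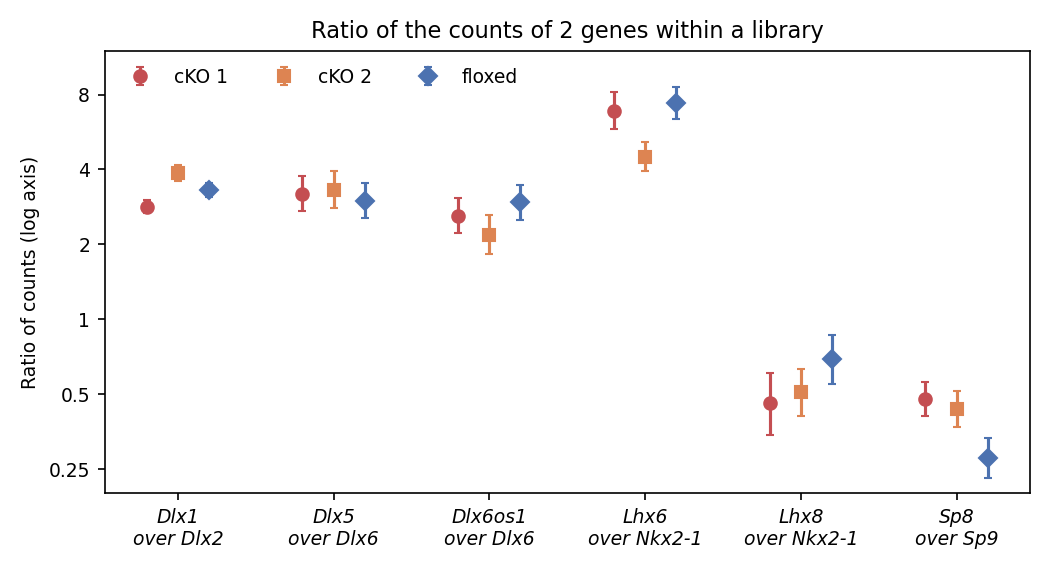
Ratio of the counts of 2 genes within each library (log axis), with exact 95% intervals of counting error. For Sp8 over Sp9 the cKO points (0.478 and 0.437) lie above floxed (0.277), while for Dlx5 over Dlx6 the 3 intervals overlap.

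Other genes were read from lists, which cover the interneuron lineage, families of the members, and other cell types and tissues. Over all these lists, edgeR called 0 of 150 genes tested. An unadjusted edgeR p under 0.05 was found for 9 of the 150, where 256 of all 16725 genes had one. These 9 were 3 pallial genes, 2 striatal genes, 2 interneuron subtype genes, 1 migration receptor gene and 1 gene of the cholinergic and pallidal list. The 5 genes called by DESeq2 and the 1 called by limma-voom were in no list. Of 8 tested progenitor factors of the ganglionic eminences, 0 were lower and 2 higher in cKO 1, and 4 lower and 0 higher in cKO 2, with median log2 ratios of 0.20 and -0.25. Six3 had 28.2, 16.9 and 24.3 CPM and Vax1 5.07, 1.72 and 3.92 CPM, so that both were lowest in cKO 2, as Dlx2 was. Gsx1 had log2 ratios of 0.58 and 0.44 on few counts, within counting error. Of 14 later interneuron factors, 4 were lower and 4 higher in cKO 1, and 5 and 2 in cKO 2, with medians of 0.05 and -0.02. Npas1, a factor of medial eminence interneurons, had 10.8, 16.4 and 17.1 CPM, and Maf, another, had 40.8, 28.2 and 34.9 CPM. The caudal eminence factor Nr2f2 had 118, 136 and 138 CPM.

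The enzymes and transporters of GABA were low in cKO 2. Of 5 genes, 4 were lower there beyond counting error and 0 higher, and in cKO 1 only the vesicular transporter gene Slc32a1 was lower (log2 ratio -0.29). The GABA-synthesising enzyme genes Gad1 (71.0, 58.8 and 71.7 CPM) and Gad2 (56.4, 43.5 and 58.9 CPM) were near floxed in cKO 1 and lower in cKO 2. Scaled to the summed counts of these 5 genes in place of the library totals, the log2 ratios of cKO 2 shift up by 0.24. Lhx6 alone then stays lower in both libraries beyond counting error (log2 ratio -0.16 in cKO 2), Dlx1 (-0.027) and Sp9 (-0.044) come within it in cKO 2, Dlx5 turns to 0.12, and Sp8 stays higher in both.

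Among receptors of interneuron migration, 3 of 12 genes were lower in both cKO libraries and 0 higher in both, with medians of 0.06 and -0.03. These were the semaphorin receptor genes Nrp2 (129, 131.5 and 157 CPM) and Nrp1 (35.8, 32.4 and 39.9 CPM) and the Slit receptor gene Robo2 (98.5, 88.0 and 122 CPM), which pyramidal neurons also express. Of 7 tested ligand genes, 1 was lower and 1 higher in both. Cxcl12, the chemokine that holds interneurons in their migratory streams and that the meninges make, had 132, 26.3 and 109 CPM, in the order of the meninges list, while its receptor genes Cxcr4 and Ackr3, named after their values were seen, had log2 ratios between 0.01 and 0.22. Nrg1, a ligand of the interneuron receptor ErbB4, was higher in both (0.32 and 0.38).

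Genes of interneuron subtypes gave 3 of 17 lower in both cKO libraries and 1 higher, with medians of -0.08 and 0.18. Nos1, the neuronal nitric oxide synthase, had 47.4, 48.1 and 74.3 CPM, and Htr3a, the serotonin receptor of caudal eminence interneurons, 3.49, 4.90 and 8.41 CPM. Adarb2, a gene of the same interneurons that was named after its values were seen, was the third, with log2 ratios of -0.51 and -0.52. Sst, the neuropeptide somatostatin of many Lhx6-positive interneurons, had 79.5, 124 and 100.02 CPM, below floxed in cKO 1 and above it in cKO 2, the order seen for Nkx2-1. Ndnf, also named after its values were seen, was the higher gene (0.55 and 0.42).

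Genes of striatal projection neurons, which are born in the lateral eminence beside the cortex, differed between the libraries. Of 21 such genes, 5 were lower in cKO 1 and 14 in cKO 2, and 1 was higher in each, with medians of -0.03 and -0.69 and summed levels of 423, 295 and 436 CPM. None was at 0. Foxp1, also a gene of cortical neurons, had 89.8, 50.8 and 84.8 CPM, Rarb, a retinoic acid receptor of striatal neurons, 14.4, 4.20 and 14.6 CPM, and the POU factor gene Pou3f4 7.89, 4.25 and 15.2 CPM. Other genes of the list were not low in cKO 2. Ppp1r1b (53.8, 62.0 and 55.7 CPM) was the 1 gene higher there, and Sox8 (29.2, 26.9 and 27.0 CPM) was within counting error in both cKO libraries. The part of striatal tissue in the values of the members was not tested.

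**Figure D4:**
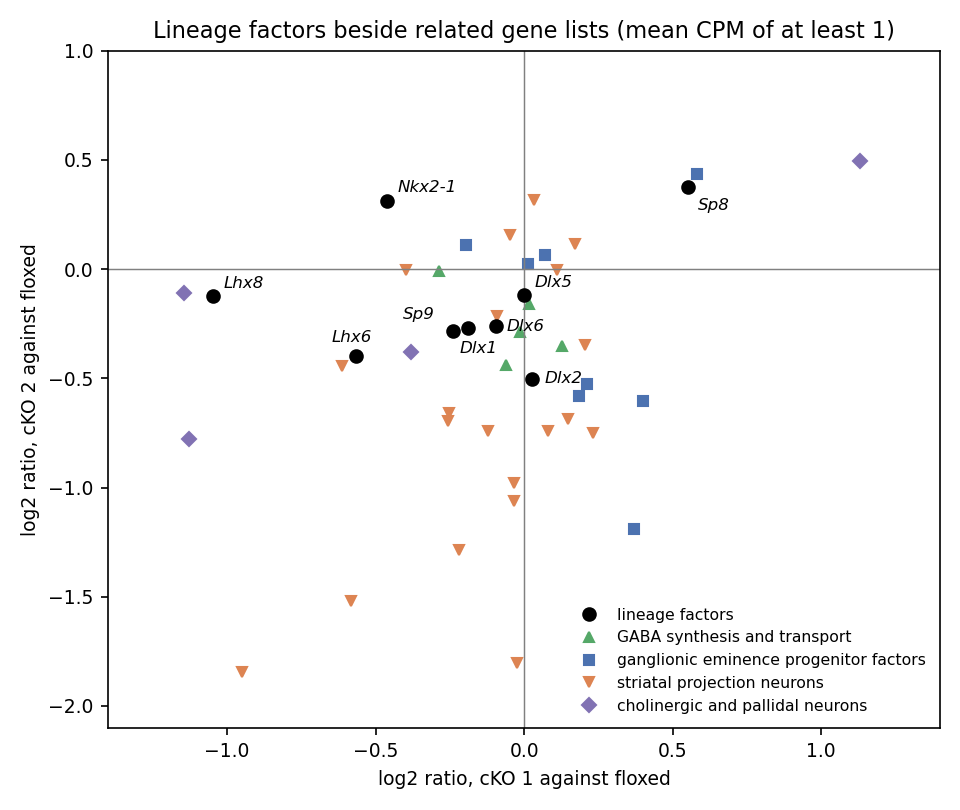
log2 ratio to floxed in cKO 1 (horizontal) and cKO 2 (vertical) for the 9 factors (black, named) and for genes of 4 related lists with a mean of at least 1 CPM, 1 point per gene. Both axes share the floxed library. Striatal genes spread downward (median -0.69 in cKO 2), while Lhx8 lies at the left beside Gbx1.

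Among 10143 other genes with a mean of at least 10 CPM, the 5 whose pair of log2 ratios lay nearest to the member medians were Adcy5, Ddx19a, Lig3, Herc1 and Slc4a8, at Euclidean distances of 0.0033 to 0.0141 over the 2 ratios. The ratios rest on 3 libraries, and the likeness is a description only.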

How the data were processed

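Total RNA (2 µg per library) went into a TruSeq preparation that does not mark strand, per the labels' protocols. Raw counts of each gene were deposited in 2 tables, which pair the floxed library with cKO 1 and with cKO 2. The submitters' processing notes list HTSeq 0.6.0, TopHat2 2.0.12, Bowtie2 2.2.3 and the mm9 build, but the deposited positions of the 9 members are those of GENCODE M21 (GRCm38). No source used here gives the counting options. The deposited CPM, the authors' fold (a ratio of CPM), its log2 and the authors' p-values compare 1 library with 1 library and were used only where named.

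Columns were assigned to groups by KO or WT in their names, which do not show which sample each is. Floxed counts were identical in both tables over shared genes and used 1 time. CPM used totals over the 19968 shared genes. The test of counts was the quasi-likelihood test of edgeR 4.0.16 (R 4.3.3) with library totals as the scale (expression filter at 10 counts, 16725 genes left, Benjamini-Hochberg adjustment at 0.05). With 1 residual degree of freedom, the spread comes from the cKO libraries and floxed is assumed to vary like them. Alternatives used TMM, DESeq2 1.42.0 and limma 3.58.1. Intervals are exact (Clopper-Pearson, 95%) and, as the reads carry no molecular identifiers, cover counting error only. The limit for a count of 0 is 3 counts, or 0.154, 0.161 and 0.168 CPM.

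The members and gene lists were chosen with earlier results of these data known. Genes named were the members, the noncoding RNAs of their loci, the 5 genes nearest in pattern and, from each other list, the 4 with the highest mean CPM and the 2 with the largest log2 ratio in each cKO library among those of at least 1 CPM, with the exceptions said to be named after their values were seen. One gene that the rule names is not reported here.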

Additional observations from a re-analysis of the deposited data

How the results depend on the processing

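edgeR called 1 gene, Ptx3, with library totals, 0 with TMM factors, 0 with DESeq2 size factors and 0 without the expression filter, limma-voom called 1, and the DESeq2 Wald test called 5, none of them a member. Unadjusted p-values under 0.05 numbered 256 with library totals, 217 with TMM, 216 with DESeq2 size factors and 412 without the filter. Without a cKO library no residual degree of freedom is left, so that the number of genes called could not be computed. Of 63 recomputed folds of members, 58 kept their direction. The fold of Nkx2-1 turned to 0.0014 (TMM), 0.0058 (DESeq2 size factors) and 0.0015 (DESeq2). Leaving out 1 cKO library, it ranged from -0.46 to 0.31, and that of Dlx2 from -0.50 to 0.028. The median log2 fold over the members was -0.21 and ranged from -0.26 to -0.19 in the alternatives. In 6 of 6 it stayed within the SD between the medians of the cKO libraries. The alternatives that leave out a cKO library supply the medians that set this SD, so they could hardly fall outside it. Alternatives for the counts of members and for cKO 1 against cKO 2 were chosen after seeing the data. Members lower in both cKO libraries were 3 under each scaling except that to the GABA list, which left 1 (Lhx6). With only cKO 2 counted 4 were lower and with only cKO 1 counted 5, those 3 members included, and the numbers higher were 2 and 1. Scaled to the GABA list, log2 ratios of cKO 2 to floxed became -0.027 (Dlx1), -0.26 (Dlx2), 0.12 (Dlx5), -0.16 (Lhx6) and -0.044 (Sp9), and those of cKO 1 to cKO 2 -0.14 (Dlx1, reversed), 0.31 (Dlx2), -0.11 (Dlx5), -0.39 (Lhx6) and -0.18 (Sp9). The divisor then holds fewer counts in cKO 2, which shifts every ratio alike. No paired analysis was possible because the deposited counts hold 1 floxed library, which both comparisons share.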

Other observations

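Paralogs of the members were mixed, with values below in the order cKO 1, cKO 2 and floxed. Of 15 tested genes of the LIM-homeobox, Sp and Nkx2 families outside the 9, 1 was lower and 5 higher in cKO 1, and 6 lower and 3 higher in cKO 2. Lhx2, the LIM-homeobox gene of cortical progenitors, had 265, 312 and 313 CPM, and Lhx1, a LIM-homeobox gene of Cajal-Retzius cells, 5.74, 6.03 and 3.81 CPM, higher in both cKO libraries. Of the widely expressed zinc-finger genes, Sp3 (75.8, 57.6 and 56.7 CPM) was higher than floxed beyond counting error in cKO 1 and within it in cKO 2, and Sp1 (48.9, 43.0 and 47.6 CPM) was within it in cKO 1 and lower in cKO 2. Sp5 had 4.56, 2.80 and 5.33 CPM.

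Oligodendrocyte precursors also arise in the eminences. Of 6 genes, 1 was higher in cKO 1, and 2 were lower and 1 higher in cKO 2. Olig2 was level at 13.9, 13.8 and 13.2 CPM, and Pdgfra, which meningeal fibroblasts express too, had 30.1, 8.94 and 21.0 CPM. Of 7 tested genes of diencephalon and hypothalamus, where Nkx2-1 is expressed as well, 2 were lower and 2 higher in each cKO library. Otp, a hypothalamic homeobox gene, had 1.54 CPM in cKO 1, 3.61 in cKO 2 and 3.36 in floxed, lowest in the library where Nkx2-1 and Lhx8 were lowest. The list did not share this order. Lhx9 (22.0, 24.1 and 17.8 CPM) and Otx2 (17.8, 8.88 and 13.5 CPM) were the 2 genes higher in cKO 1. Summed levels of the list were 63.0, 55.1 and 54.7 CPM, with median log2 ratios of 0.17 and -0.06.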
